A study of Mus musculus with 6 samples.

Results

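The genes described here are 44 genes of G2 and mitosis, the phases in which a cell that has copied its DNA condenses its chromosomes, pulls them apart on a spindle and divides. They were taken by symbol from a list, by a rule that uses no measured value, though the list was chosen with earlier results of these data known. All 44 are among the 15528 genes of the deposited count table. The RNA came from mouse cells in culture, which the labels call lymphatic endothelial cells: 3 libraries of cells given red blood cells and 3 control libraries, all taken at 24 h. The series concerns brain bleeding and the neck lymph nodes, and the comparison asks what the presence of red blood cells changes in these cells. The labels give no strain, sex, source or amount of red blood cells, and they do not say that replicates came from separate cultures, so a p-value here reflects only library-to-library spread, part of which may be technical.

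Entry into mitosis is driven by the kinase Cdk1 bound to A- and B-type cyclins. Its substrates build the spindle and the kinetochores, a checkpoint holds back anaphase until every chromosome is attached, and the anaphase-promoting complex then marks cyclin B and securin for destruction. The genes are transcribed late in the cycle, through promoters that the DREAM repressor complex holds shut in resting cells and that the MuvB complex, B-Myb and FoxM1 open in G2. Their RNA is therefore widely used as a measure of how many cells in a population are dividing. In bulk RNA a smaller share of dividing cells and less RNA per dividing cell cannot be told apart.

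Of the 44 genes, 37 were matched by symbol in RefSeq's table of GRCm38.p6 promoters, which runs from 250 bases before to 50 bases after each start. The entries not matched were Ccna2, Cdc25c, Tpx2, Aurkb, Incenp, Kif20a and Smc4. The CHR element, bound by MuvB complexes and searched as TTTGAA on both strands, was found in 28 of the 37 (75.7%) and in 5466 of all 27025 genes of that table (20.2%). Counted by promoter rather than gene, 5878 of all 32851 promoters held it (17.9%). The CCAAT box, bound by NF-Y and searched as CCAAT on both strands, was found in 29 of the 37 (78.4%) and in 11096 of all 27025 genes (41.1%), or in 12289 of the 32851 promoters (37.4%). Both were found for 25 of the 37 genes (67.6%) against 2155 of all 27025 genes (7.97%) and 2284 of the 32851 promoters (6.95%), and in 1 of the 37 genes a match of each shared a base. These matches describe letters in a window and are not measured binding sites. The 4 promoters below belong to Anln, the only gene of the list called in any of the fits run, to Mki67, which had the largest fold change, and to Spc25 and Top2a, which had the smallest p-values on the lower and the higher side with all libraries. Each is printed 5′ to 3′ on the strand of its gene with CHR and CCAAT letters of either strand in capitals. They lie at chr9:22389157-22389456 (Anln), chr7:135716330-135716629 (Mki67), chr2:69206164-69206463 (Spc25) and chr11:99024140-99024439 (Top2a) of GRCm38.p6, all on the minus strand.
Anln: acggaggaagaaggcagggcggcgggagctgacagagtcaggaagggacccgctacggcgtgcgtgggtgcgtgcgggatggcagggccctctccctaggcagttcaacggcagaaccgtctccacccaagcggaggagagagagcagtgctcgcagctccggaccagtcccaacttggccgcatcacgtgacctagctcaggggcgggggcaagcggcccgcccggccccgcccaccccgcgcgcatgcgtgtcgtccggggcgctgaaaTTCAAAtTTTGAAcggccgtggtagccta
Mki67: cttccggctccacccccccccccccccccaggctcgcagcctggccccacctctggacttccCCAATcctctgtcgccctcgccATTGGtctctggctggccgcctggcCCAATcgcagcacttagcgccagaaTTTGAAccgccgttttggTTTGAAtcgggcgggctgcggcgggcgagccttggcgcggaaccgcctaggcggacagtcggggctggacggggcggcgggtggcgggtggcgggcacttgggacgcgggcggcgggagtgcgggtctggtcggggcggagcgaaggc
Spc25: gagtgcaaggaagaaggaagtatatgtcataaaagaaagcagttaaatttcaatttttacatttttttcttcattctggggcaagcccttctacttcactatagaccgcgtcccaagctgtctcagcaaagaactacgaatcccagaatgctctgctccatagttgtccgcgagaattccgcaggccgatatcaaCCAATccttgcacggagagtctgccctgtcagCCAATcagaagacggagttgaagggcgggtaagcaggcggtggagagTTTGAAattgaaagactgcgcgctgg
Top2a: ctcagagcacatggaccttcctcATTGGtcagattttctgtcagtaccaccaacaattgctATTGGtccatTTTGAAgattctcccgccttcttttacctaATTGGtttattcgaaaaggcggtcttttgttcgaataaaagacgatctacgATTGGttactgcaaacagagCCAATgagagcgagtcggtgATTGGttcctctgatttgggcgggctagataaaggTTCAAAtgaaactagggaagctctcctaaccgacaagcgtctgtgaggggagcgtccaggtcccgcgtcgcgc
Anln had 2 CHR matches and no CCAAT match, Mki67 had 2 and 3, Spc25 had 1 and 2, and Top2a had 2 and 6.

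Total counts ranged from 17263359 to 18381419 per library, and every one of the 44 genes had at least 653 counts in each. Exons of 14 of the 44 genes overlap those of another gene in the GENCODE M21 annotation. Ccna2 with Exosc9, Ube2c with Tnnc2 and Cdc20 with Elovl1 are examples on the opposite strand. Top2a and Ncapd2 overlap small RNA genes on the same strand, and their counts are uncertain to that extent. Overlaps on the opposite strand make counts uncertain only if strand was ignored in counting, and that setting is not given. Control replicate 2 stood apart: over the 44 genes the chi-square per gene that compares its counts with control replicate 1 or 3 was 62.1 or 63.4, against 1.96 to 3.97 among the libraries with red blood cells and 1.83 between the other controls. Results are therefore given with all 6 libraries and without control replicate 2, which leaves 2 controls. Of 14 lymphatic endothelial markers 10 are listed, with a summed level of 608 to 643 CPM (the counts of a gene scaled to the library total) with red blood cells and 451 to 552 CPM in controls. Nrp2 and Nr2f2 made up most of it, while the lymphatic marker Pdpn had 0 to 1 counts in a library with red blood cells and 2 in a control, and the endothelial cadherin Cdh5 had 2 to 6 with red blood cells and 0 to 5 in controls. The labelled identity is thus not established by these markers. Of 12 erythroid markers 11 are listed and summed to 538 to 624 CPM with red blood cells, against 3.43 to 3.87 CPM in controls. Slc4a1 and Epb42 were among the 3 of these 11 at 0 in the controls. Of 14 leukocyte markers 12 are listed, with 49.7 to 54.9 CPM with red blood cells and 42.3 to 48.7 CPM in controls. Ptprc, Cd74 and Spi1 were among the 4 of these 12 at 0 in the controls, and the rest had counts there. Of 9 epithelial and mesothelial markers 7 are listed, and their sum was lower in each library with red blood cells, at 614 to 636 CPM, than in each control, at 658 to 738 CPM. Krt5 and Wt1 were the 2 of these 7 at 0 in the controls. Of 12 fibroblast and mural markers 10 are listed, with 452 to 469.7 CPM with red blood cells and 443 to 493 CPM in controls. Lum was the only 1 of these 10 at 0 in the controls. Pan-endothelial markers, 9 of 14 listed, summed to 117 to 119.5 CPM with red blood cells and 112 to 124 CPM in controls. Kdr was the only 1 of these 9 at 0 in the controls. Platelet markers, 5 of 6 listed, summed to 1.33 to 1.80 CPM with red blood cells and 0.70 to 1.2 CPM in controls. Pf4 and Gp1ba were the 2 of these 5 at 0 in the controls.

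The mitotic genes were strongly expressed in both groups. Set beside the 11208 genes tested, by FPKM (counts scaled by gene model length and library total), the median gene of the list stood at the 90.0th percentile with red blood cells and at the 89.7th in controls. Their group means ran over 17.3 to 267 FPKM with red blood cells (median 64.4) and over 17.3 to 290.1 FPKM in controls (median 64.7). Ube2c, the ubiquitin-conjugating enzyme of the anaphase-promoting complex, was the highest per length with 267 ± 1.29 FPKM with red blood cells and 290.1 ± 30.5 FPKM in controls (SD, n = 3 each). Ttk, the checkpoint kinase Mps1, was the lowest with 17.3 ± 1.0 FPKM with red blood cells and 17.3 ± 0.46 FPKM in controls. Tpx2, which activates Aurora A on the spindle, had 185 ± 3.38 FPKM with red blood cells and 183 ± 3.67 FPKM in controls. Summed over the 44 genes, counts made up 10560, 10772 and 10666 CPM in the libraries with red blood cells and 10677, 10315 and 10568 CPM in control replicates 1 to 3. The groups overlap in this sum and the lowest library is control replicate 2.

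**Figure D1:**
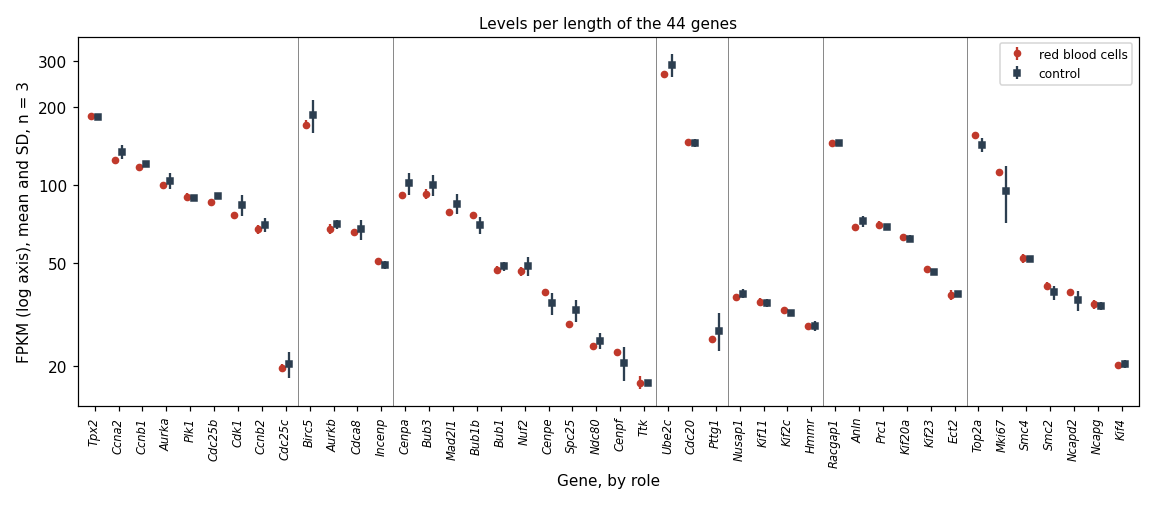
Levels of the 44 genes in FPKM (log axis), grouped by role and ordered by level within a role; circles are the mean of 3 libraries with red blood cells, squares that of 3 controls, and bars are the SD. The 2 symbols lie close together for each gene, from Ttk at 17.3 FPKM to Ube2c at 267 FPKM with red blood cells, and on the log axis the control bars are wide for Mki67 and Pttg1.

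No gene of the list passed the test when all 6 libraries were compared. By edgeR's quasi-likelihood test with Benjamini-Hochberg adjustment over 11208 genes, 0 of 44 were called higher and 0 lower at an adjusted p under 0.05, against 1.46% of all genes tested (1.16% higher and 0.303% lower). None had an unadjusted p under 0.05, a level that 9.99% of all genes reached, and the smallest adjusted p of a member was 0.498. DESeq2 and limma voom also called 0 members, where they called 233 of 14346 and 161 of 11208 genes tested. Limma on log2(FPKM + 1) called 0 members, where 1.31% of 9976 genes were called. The fold changes were small on either side of 0, with 21 positive, 23 negative and a median log2 fold change of -0.016, beside -0.0027 over all genes tested. They ran from -0.17 for Spc25 to 0.24 for Mki67. The 95% intervals hold for each gene on its own and reflect only library-to-library spread, part of which may be technical. Of the 44 intervals, 31 lay wholly within a 1.2-fold change either way. The lowest bound was -0.34 (Pttg1, 0.79-fold) and the highest 0.59 (Mki67, 1.51-fold).

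Without control replicate 2 the intervals narrowed and 1 gene was called, Anln, lower with red blood cells. That is 0 of 44 called higher and 1 of 44 lower, where 7.96% of 11297 genes were called (4.19% higher and 3.77% lower). All 44 intervals then lay within a 1.2-fold change either way, the fold changes ran from 0.93 to 1.06, and their median log2 value was 0.0052, beside -0.00046 over the 11208 genes of the first fit. The lowest bound was -0.19 (Spc25) and the highest 0.17 (Cdc25c). In this fit 4 members had an unadjusted p under 0.05, namely Anln, Cdc25b, Top2a and Bub1b, against 19.4% of all genes.

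**Figure D2:**
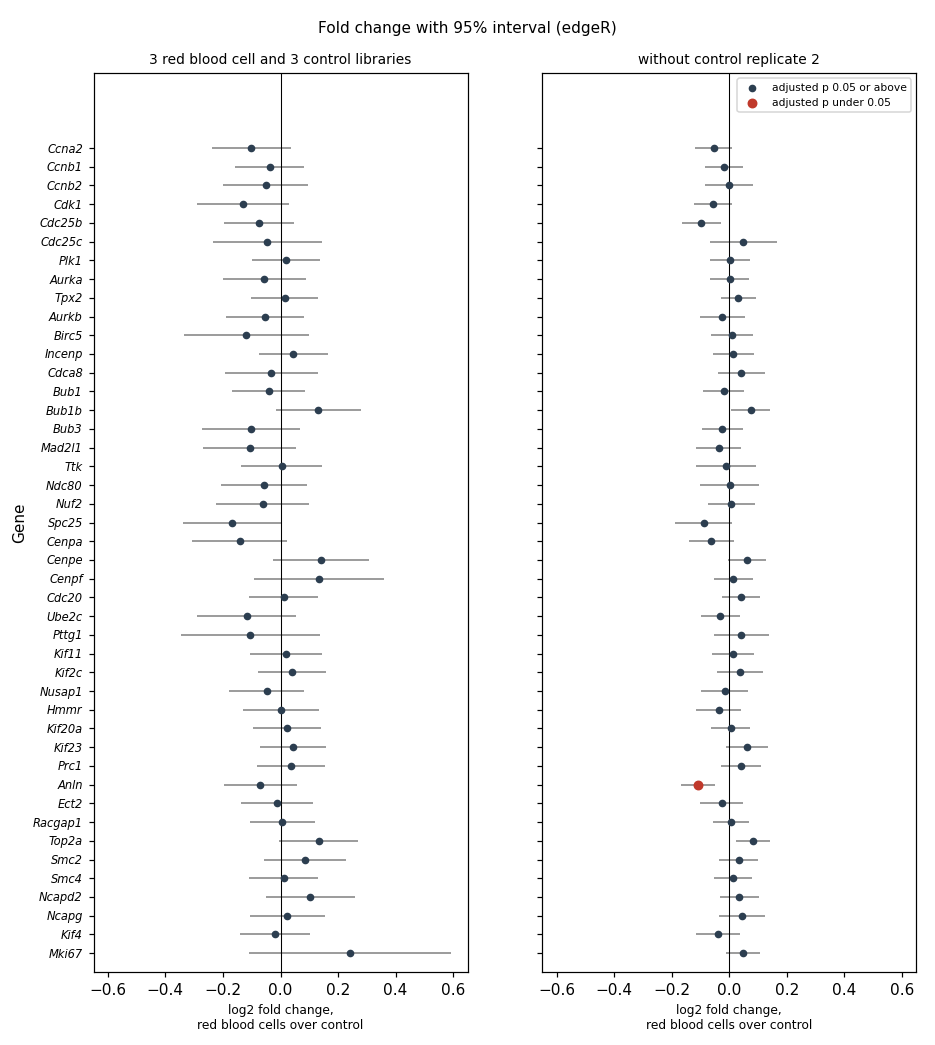
Log2 fold change (red blood cells over control) of each of the 44 genes with its 95% interval, by edgeR, with 3 libraries a group (left) and without control replicate 2 (right). On the left each interval includes 0, and that of Mki67 is the widest; on the right all 44 lie within a 1.2-fold change either way and Anln is the gene with an adjusted p under 0.05.

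The cyclins and kinases that start mitosis were not called in either fit. Ccnb1, the main mitotic cyclin, had 277, 269 and 265 CPM with red blood cells, against 277, 286 and 270.5 CPM in controls. These values interleave, and the log2 fold change was -0.038 with a 95% interval of -0.16 to 0.081. Cdk1, its kinase, had 326, 338 and 332 CPM with red blood cells, against 353, 401 and 337 CPM in controls, where replicate 2 is the high value. Its log2 fold change was -0.13 with all libraries (-0.29 to 0.029) and -0.056 without control replicate 2 (-0.12 to 0.0085). Ccna2, the cyclin of S phase and G2, had 412, 430.2 and 421 CPM with red blood cells and 447, 482 and 428 CPM in controls, again with replicate 2 highest. Cyclin B2, encoded by Ccnb2, had 104 ± 4.24 CPM with red blood cells and 108 ± 6.58 CPM in controls (mean and SD over 3 libraries, as wherever CPM are given with ±).

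Among the activators of Cdk1, Cdc25b, a phosphatase that removes its inhibitory phosphates, had 274, 258 and 266 CPM with red blood cells and 284, 272 and 286 CPM in controls. Without control replicate 2 its groups did not overlap, at a log2 fold change of -0.10 (-0.16 to -0.030, adjusted p = 0.0596 by edgeR), which missed the threshold. The related phosphatase Cdc25c had 38.5 ± 1.39 CPM with red blood cells and 39.8 ± 4.43 CPM in controls. Plk1, the kinase that acts at centrosomes, kinetochores and the cleavage furrow, had 200.4, 193 and 205 CPM with red blood cells and 201, 193 and 198 CPM in controls, at a log2 fold change of 0.020 (-0.10 to 0.14). Aurka, the spindle pole kinase, and its activator Tpx2 had log2 fold changes of -0.057 and 0.015. In this group of 9 genes 2 fold changes were positive and 7 negative with all libraries, and 4 and 5 without control replicate 2.

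The chromosomal passenger complex corrects faulty attachments of chromosomes and then moves to the midzone. Its kinase Aurkb had 138 ± 6.17 CPM with red blood cells and 143 ± 5.41 CPM in controls. Its scaffold Incenp had 165 ± 2.04 CPM with red blood cells and 159.7 ± 5.77 CPM in controls. Borealin, encoded by Cdca8, had 107 ± 2.32 CPM with red blood cells and 109 ± 9.58 CPM in controls. Survivin, encoded by Birc5, had 159, 168 and 172 CPM with red blood cells, against 165, 211 and 166 CPM in controls. All libraries but control replicate 2 lay between 159 and 172 CPM, and the log2 fold change was -0.12 with that library and 0.0091 without it (-0.064 to 0.082).

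Kinetochore and checkpoint genes held 4 of the 7 members whose libraries did not overlap between groups, which is 4 of 11 genes of that role (36.4%). Genes of mitotic chromosome structure held the other 3, which is 3 of 7 genes of that role (42.9%). Over all 44 genes 5 stood apart higher (11.4%, against 10.4% of all genes tested) and 2 lower (4.55%, against 9.19%), which is 15.9% in either direction against 19.6%. Without control replicate 2 there were 9 higher and 4 lower, 29.5% in all, against 34.2% of all genes (17% higher and 17.2% lower). Spc25, a subunit of the Ndc80 complex that grips microtubules, had 57.2, 58.1 and 57.1 CPM with red blood cells, against 62.9, 71.6 and 59.5 CPM in controls. Each library with red blood cells was below each control, though by little for control replicate 3, and the log2 fold change was -0.17 (-0.34 to 0.00047, adjusted p = 0.498 by edgeR). Cenpa, the histone H3 variant that marks centromeres, had 117, 121 and 116 CPM with red blood cells and 123, 144 and 123 CPM in controls, at -0.14 with all libraries and -0.062 without control replicate 2 (adjusted p = 0.41).

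The other pair stood apart on the higher side. Bub1b, the checkpoint protein BubR1, had 279, 280.3 and 286 CPM with red blood cells and 259.8, 237 and 276 CPM in controls, at a log2 fold change of 0.13 with all libraries and 0.074 without control replicate 2 (0.0068 to 0.14, adjusted p = 0.196 by edgeR). Cenpe, the kinesin that carries chromosomes to the spindle equator, had 293, 309 and 300.4 CPM with red blood cells and 287, 243 and 289 CPM in controls, at 0.14 and 0.063. None of these 4 passed the threshold in either fit.

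The rest of the checkpoint and kinetochore genes overlapped between groups. Checkpoint kinases Bub1 and Ttk had 205 ± 6.66 and 54.6 ± 3.16 CPM with red blood cells and 211 ± 8.52 and 54.5 ± 1.45 CPM in controls. Mad2l1, the inhibitor of Cdc20, had 126 ± 3.59 CPM with red blood cells and 136 ± 12.0 CPM in controls. Bub3, the partner of Bub1 and BubR1, had 203 ± 9.16 CPM with red blood cells and 218 ± 20.3 CPM in controls. Ndc80 and Nuf2, the microtubule-binding arm of the Ndc80 complex, had log2 fold changes of -0.057 and -0.061 with all libraries and 0.0013 and 0.0073 without control replicate 2. Cenpf, a large coiled-coil protein of the outer kinetochore, had 248, 262 and 260.0 CPM with red blood cells and 254, 194 and 254 CPM in controls. Control replicate 2 is the low value there, and the log2 fold change was 0.14 with it and 0.014 without it (-0.053 to 0.082).

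None of the 3 genes of anaphase and mitotic exit was called. Cdc20, which activates the anaphase-promoting complex, had 264, 257 and 259 CPM with red blood cells and 255, 269 and 250.3 CPM in controls, at a log2 fold change of 0.011 (-0.11 to 0.13). Ube2c had 247, 249.9 and 249 CPM with red blood cells and 247, 302 and 261 CPM in controls, with replicate 2 the high value. Securin, the inhibitor of separase encoded by Pttg1, had 64.8, 66.3 and 65.2 CPM with red blood cells and 62.4, 84.0 and 64.8 CPM in controls. Its 3 libraries with red blood cells lay within 64.8 to 66.3 CPM, and its log2 fold change was -0.10 with control replicate 2 and 0.041 without it (-0.054 to 0.14).

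Spindle motors and microtubule binders lay close together in both groups, and none was called. Kif11, the motor that pushes spindle poles apart, had 172 ± 6.06 CPM with red blood cells and 169.8 ± 5.63 CPM in controls. Kif2c, a depolymerase of microtubule ends, had 108 ± 2.04 CPM with red blood cells and 105 ± 1.46 CPM in controls. Nusap1 and Hmmr, which bind spindle microtubules, had 112 ± 3.68 and 112 ± 3.04 CPM with red blood cells and 116 ± 4.46 and 112 ± 5.22 CPM in controls. The 4 fold changes lay between -0.047 and 0.038 on the log2 scale.

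Genes of the midzone and of cytokinesis held the 1 call. Anln encodes anillin, which ties actin, myosin and septins together in the cleavage furrow. It had 539.8, 544 and 536 CPM with red blood cells, against 589, 537 and 576 CPM in controls, so that control replicate 2 lies at the level of the libraries with red blood cells and the other controls above it. Without that library the log2 fold change was -0.11 ± 0.030 SE (-0.17 to -0.049, adjusted p = 0.0117 by edgeR, 0.93-fold, lower in 3 of 3 libraries). With all 6 libraries it was -0.070 ± 0.056 SE (-0.20 to 0.057, adjusted p = 0.684), and limma on log2(FPKM + 1) gave an adjusted p of 0.66 with all libraries and 0.093 without control replicate 2. The summed erythroid, lymphatic endothelial, leukocyte and platelet markers were higher in each library with red blood cells than in each control, as given above. The summed epithelial and mesothelial markers were lower. The part of these marker differences in that of Anln was not tested.

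The other 5 genes of this role were not called. Ect2, the exchange factor that activates RhoA at the furrow, had 163, 176 and 176 CPM with red blood cells and 176, 170.0 and 174 CPM in controls. Centralspindlin, made of Racgap1 and the motor Kif23, had 444 ± 8.24 and 165 ± 2.37 CPM with red blood cells and 442 ± 0.05 and 160.0 ± 3.81 CPM in controls. Prc1, which bundles midzone microtubules, and Kif20a, which brings the passenger complex there, had log2 fold changes of 0.038 and 0.023 with all libraries and 0.040 and 0.0051 without control replicate 2.

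Genes of mitotic chromosome structure had mostly positive fold changes, 6 of 7 in each fit, and none was called. All but Ncapg are among the 10 longest members by gene model length. Of those 10, 8 were positive in each fit. Of the 10 shortest members, 1 was positive with all libraries and 4 without control replicate 2. The part of gene length in these signs was not tested. Mki67, which encodes the Ki-67 protein that coats mitotic chromosomes and serves as the standard stain for dividing cells, had 1099, 1139.8 and 1149 CPM with red blood cells, against 1096, 684 and 1090.4 CPM in controls. The groups did not overlap, but by a margin of 1099 against 1096 CPM; all libraries other than control replicate 2 lay between 1090.4 and 1149 CPM, and that library had 62.6% of the mean of the other controls. Its log2 fold change was 0.24 with all libraries (-0.11 to 0.59, adjusted p = 0.638) and 0.047 without control replicate 2 (-0.011 to 0.11, adjusted p = 0.401). Top2a, the topoisomerase that untangles sister chromatids, had 801, 824 and 828 CPM with red blood cells and 783, 695 and 761 CPM in controls. Its groups did not overlap, at 0.13 (-0.0048 to 0.27) with all libraries and 0.083 (0.024 to 0.14, adjusted p = 0.074) without control replicate 2.

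Condensin, the ring that compacts chromosomes, had no subunit that was called. Smc2 and Smc4, its ATPases, had 229.8 ± 7.41 and 366 ± 15.1 CPM with red blood cells and 217 ± 13.7 and 363 ± 2.80 CPM in controls. Ncapd2, a regulatory subunit of condensin I, had 227, 227 and 227 CPM with red blood cells and 224, 191 and 219.8 CPM in controls, a difference of 0.10 on the log2 scale with all libraries and 0.034 without control replicate 2. Its partner Ncapg had 128 ± 5.08 CPM with red blood cells and 126 ± 4.32 CPM in controls. Kif4, a motor on chromosome arms, had 131 ± 0.53 CPM with red blood cells and 133 ± 5.08 CPM in controls.

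**Figure D3:**
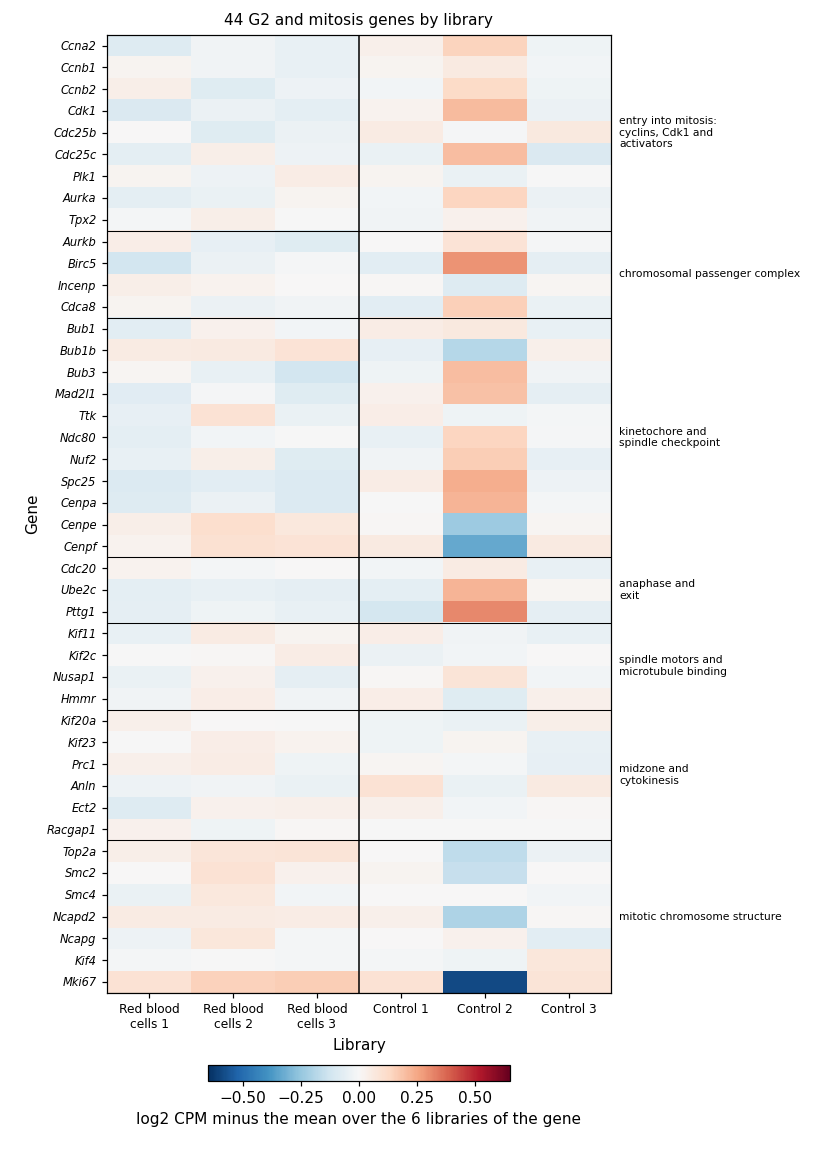
Log2 CPM of each of the 44 genes in each library, minus the gene's mean over the 6 libraries; rows are genes grouped by role, red is above and blue below the mean. The column of control replicate 2 holds the strongest colours, lowest for Mki67 and Cenpf and highest for Pttg1 and Birc5, while the 3 libraries with red blood cells resemble control replicates 1 and 3.

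Control replicate 2 was the library farthest from the others for many of the 44 genes. It was the highest of the 6 libraries for 20 genes and the lowest for 12, and among the controls it was highest for 25, lowest for 16 and in between for 3. Against the mean of the other controls it ranged from 62.6% for Mki67 to 132% for Pttg1. The median coefficient of variation of a gene was 2.48% among the libraries with red blood cells (0.15% for Ncapd2 to 5.78% for Ttk) and 5.43% among the 3 controls (up to 24.7% for Mki67), but 1.38% between control replicates 1 and 3.

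These departures followed gene length. Gene model length, computed from the ratio of counts to FPKM, was 931 bases for Ube2c and 11365 bases for Cenpf. Control replicate 2 was the lowest control for 8 of the 10 longest genes and the highest control for all 10 of the shortest. Across the 44 genes the log2 ratio of control replicate 2 to the mean of the other controls had a Pearson r of -0.80 and a Spearman rho of -0.79 with log2 length, and across 11193 tested genes with a count in every library the values were -0.58 and -0.66. Between control replicates 1 and 3 the same r over the 44 genes was 0.064, and for each library with red blood cells against the mean of the others of its group it lay between -0.33 and 0.26. The genes share their libraries, so these are descriptions. With control replicate 2 in the fit the fold changes of the 44 genes carried the same trend (r = 0.68 with log2 length), and without it r was 0.15. Among the 10 longest genes the median log2 fold change was 0.094 with all libraries and 0.023 without control replicate 2, and among the 10 shortest -0.081 and -0.012. The cause of the length trend was not tested. Anln, at 7851 bases, is among the longest genes, and control replicate 2 had 92.1% of the mean of the other controls for it, against 84.4% for Cenpe at 7813 bases and 101% for Smc4 at 7015 bases. With an offset fitted to the length trend of each library edgeR called 0 members, where 3.02% of all genes were called (1.94% higher and 1.09% lower). With libraries weighted by their quality, limma voom also called 0 members, against 5.81% of all genes (3.23% higher and 2.58% lower).

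**Figure D4:**
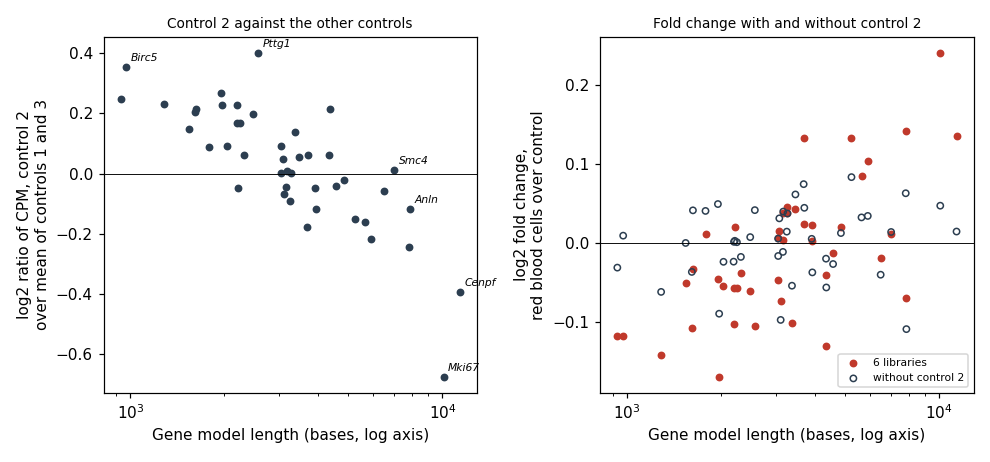
Left, the log2 ratio of control replicate 2 to the mean of control replicates 1 and 3 for each of the 44 genes against gene model length (log axis); right, the log2 fold change (red blood cells over control) against length with 6 libraries (filled) and without control replicate 2 (open). The ratio on the left falls with length, to the lowest point at Mki67, and the upward trend of the filled points on the right (r = 0.68) is weaker in the open ones (r = 0.15).

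Other genes of the programme gave few calls. A further list held 114 genes that regulate or carry out mitosis, of which 113 are listed and tested. With all 6 libraries edgeR called 0 of them, where 1.46% of all genes were called. An unadjusted p under 0.05 was reached by 4 of the 113, against 9.99% of all genes. DESeq2 and limma voom also called 0, where they called 233 of 14346 and 161 of 11208 genes tested. The median log2 fold change of the list was -0.0054. Among 11 genes for the transcription of mitotic genes 0 were called in either fit: Mybl2, which encodes B-Myb, had 188, 181 and 186 CPM with red blood cells and 169.6, 167 and 178 CPM in controls, without a call (0.11 on the log2 scale, adjusted p = 0.551). The 3 smallest p-values on each side were those of Mybl2, separase (Espl1, 0.19) and the spindle motor Kif15 (0.14) with positive fold changes, and of Cdkn1b, the kinetochore protein Zwint (-0.16) and the centromere protein Cenpt (-0.14) with negative ones.

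Without control replicate 2, 2 of the 113 genes were called higher and 1 lower, 2.65% against 7.96% of all genes. Cdkn1b, the cyclin-dependent kinase inhibitor p27, fell to 32.8, 35.8 and 33.2 CPM with red blood cells, against 41.2, 38.8 and 38.5 CPM in controls (-0.23 ± 0.060 SE, adjusted p = 0.00696 by edgeR without control replicate 2; -0.22, adjusted p = 0.245, with all libraries). Gadd45a, a stress-induced gene that can hold cells in G2, rose to 18.9, 16.5 and 18.3 CPM, against 14.5, 18.0 and 12.9 CPM in controls (0.39 ± 0.088, adjusted p = 0.00155 without control replicate 2; 0.24, adjusted p = 0.555, with all libraries, where control replicate 2 overlaps). Nek2, a kinase that separates centrosomes, rose by 0.12 on the log2 scale without control replicate 2 (adjusted p = 0.0258; with all libraries 0.091, adjusted p = 0.607). Gadd45a and Nek2 were chosen after their values were seen.

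Genes of DNA replication, the phase before, were set beside the mitotic genes. Of 33 listed and tested, 0 were called with all 6 libraries by edgeR, where 1.46% of all genes were called. An unadjusted p under 0.05 was reached by 3 of the 33, against 9.99% of all genes. DESeq2 and limma voom also called 0, where they called 233 of 14346 and 161 of 11208 genes tested. The median log2 fold change of the 33 was 0.014. Without control replicate 2, 7 were called higher and 0 lower (21.2%, against 4.19% of all genes called higher), with a median of 0.062 beside 0.0052 for the 44 mitotic genes, of which 0 were called higher. With all libraries kept, limma voom with library weights called 2 of the 33, where 5.81% of all genes were called. The length offset called 1 of the 33, where 3.02% were called. Uhrf1, which brings the DNA methyltransferase to new strands, rose to 282, 271 and 275 CPM, against 233, 206 and 249 CPM in controls (0.20 ± 0.035 SE, adjusted p = 2.1e-05 without control replicate 2; 0.27, adjusted p = 0.175, with all libraries). Mcm7, of the replicative helicase, had 277, 285 and 276 CPM with red blood cells and 250.4, 259 and 261 CPM in controls (0.13, adjusted p = 0.00662 without control replicate 2; 0.12, adjusted p = 0.452, with all libraries). Mcm3, Mcm5, Cdc45, Cdt1 and Gins2 (all but Cdc45 picked with their values known) rose by 0.11 to 0.25 on the log2 scale without control replicate 2 and had 0.083 to 0.14 without a call with all libraries. The smallest p-values among negative fold changes with all libraries were those of the cyclin gene Ccne1 (-0.13), the helicase gene Gins3 (-0.10) and the histone mRNA-binding gene Slbp (-0.068), none of them called. The difference between the lists was not tested. Nor was the part of the erythroid, lymphatic endothelial, leukocyte, platelet, or epithelial and mesothelial transcripts in these calls.

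**Figure D5:**
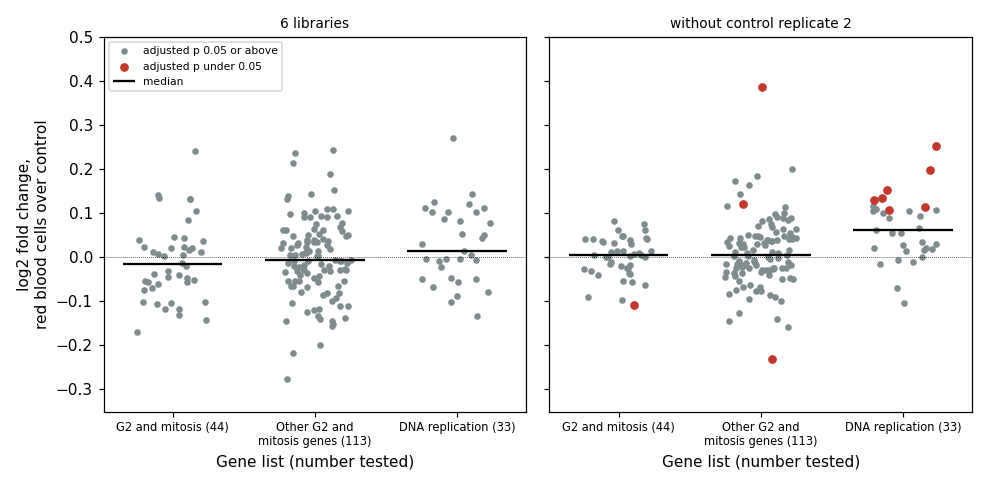
Log2 fold changes (red blood cells over control) of the 44 mitotic genes, of 113 other G2 and mitosis genes and of 33 replication genes with 6 libraries (left) and without control replicate 2 (right); each point is a gene, larger red points have an adjusted p under 0.05, bars are medians and the sideways scatter is random. No point is red on the left; on the right 1, 3 and 7 are, and the median of the replication genes is 0.062 against 0.0052 for the 44 mitotic genes.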

How the data were processed

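The authors deposited raw counts per gene, as whole numbers, and FPKM values for the same genes and libraries; the count table is the main data. TRIzol extraction and a strand-specific mRNA library kit were used, per the labels' protocols, and the build was GRCm39, per the submitters' processing notes. For the aligner, the counter and its strand setting the record is: not given in the sources used here. Exon overlaps were read from GENCODE M21, which is of an earlier build, by symbol. FPKM were scaled by the sum of listed counts and hold the same reads.

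Counts were filtered with filterByExpr (minimum count 10, total 15; 99.96% of counts kept), scaled by TMM and tested with glmQLFit and glmQLFTest of edgeR 4.0.16 in R 4.3.3, with p-values adjusted by Benjamini-Hochberg over all genes tested. Standard errors and 95% intervals are those of the log2 fold change. CPM use all listed counts of a library. FPKM were tested with limma 3.58.1 (trend) on log2(FPKM + 1), keeping genes whose mean reached 1 FPKM in either group. Alternatives included DESeq2 1.42.0, limma voom with and without library weights, other scalings and filters, a length offset, a replicate block and leaving out each library. No library was dropped from a fit except where stated. The scripts were tested on simulated data. All 44 members were named, and from the other 2 lists the 3 smallest p-values on each side; further called genes were added after their values were seen. Members, lists and alternatives were chosen with earlier results of these data known.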

Additional observations from a re-analysis of the deposited data

How the results depend on the processing

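With RLE scaling, library size only, DESeq2, limma voom, no low-count filter, a filter of 1 CPM in 3 libraries, or erythroid markers left out before scaling, 0 of the 44 genes were called and no member's fold change turned sign. Over all genes these fits called from 147 of 10817 (the filter of 1 CPM) to 233 of 14346 (DESeq2). Voom with library weights (weight 0.12 for control replicate 2) and the length offset also called 0 members, with 6 signs turned in each; over all genes they called 651 and 339, against 164. Library weights called 2 of 113 related and 2 of 33 replication genes, where 5.81% of all genes were called. The length offset called 0 related genes and 1 of 33 replication genes, where 3.02% of all genes were called. With 1 library left out in turn, members called lower numbered 0 to 1, related genes called 0 to 3, replication genes called 0 to 7 and all genes called 62 to 899. In each the highest count is that without control replicate 2, and the other fits called 0 members. Member signs turned for 0, 9 and 4 genes without control replicate 1, 2 and 3. Without red blood cell replicate 1, 2 and 3 they turned for 2, 5 and 0. All genes called were 72, 62 and 79 without red blood cell replicate 1, 2 and 3. FPKM called 0 members under every alternative run on them. Deviations from the group mean had r = -0.014, 0.045 and 0.063 between same-numbered libraries for numbers 1 to 3. Between libraries of different numbers r was -0.067 to 0.034. With 3 libraries a group these values cannot decide whether the numbers pair the libraries. With the replicate block 0 members and 126 genes were called. Depth left each member with at least 653 counts in a library; 3 libraries a group, or 2 controls without replicate 2, limit the precision of the spread.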
